A study of Mus musculus with 477 samples.

Results

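Cycling luminal cells were the mouse mammary luminal cells whose reads of Mki67, Top2a, Cdk1, Ccnb1 and Birc5 summed to 200 CPM or more. CPM is a gene's count as a share of all counts of that cell, scaled to a common library size. The rule chose 78 of 312 luminal cells, in a series of 477 single cells that also held 165 tumor cells. The other 234 luminal cells are called non-cycling below, a name that says only that they stayed under this limit. The members were chosen by the levels of these 5 markers, so their levels are a description here and carry no test.

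Each cell was a separate full-length cDNA library made on a Fluidigm C1 chip, which captures cells by size. Each luminal cell had been sorted as DAPI- CD24Hi CD29Lo membrane-GFP+ from lineage-depleted glands. All mice that gave luminal cells were females of 3 to 4 months on a mixed C57BL/6 and 129/Sv background. They carried MMTV-Cre and the ROSA mT/mG reporter, which turns green where Cre has been active. MMTV-Cre acts in mammary epithelium, so the green sort kept cells in which Cre had worked. The Br mice were Brca1 fl/fl, the 53 mice were Trp53 fl/+, and the Br53 mice carried both. The luminal cells came from 3 virgin mice (vBrL, vBr53L and v53L) and from 4 mice at pregnancy day 12.5 (pBrL-1, pBrL-2, pBr53L and p53L). Every group was 1 mouse except pBrL, which was 2, and there was no mouse with both genes intact. The mouse was the unit of replication throughout. Genotype and chip cannot be told apart, while vBr53L shared a chip with pBr53L, and v53L shared one with p53L.

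A dividing cell copies its DNA in S phase and separates the copies in mitosis. E2F factors drive genes of nucleotide supply and replication at the start of S phase. The DREAM and MMB-FOXM1 complexes control a later wave of mitotic genes through CHR and CCAAT promoter elements. In the mammary gland, luminal cells divide in pregnancy as alveoli form, and they take up milk gene expression over the same period. Of the 5 markers, Top2a untangles DNA, Cdk1 with its partner cyclin Ccnb1 drives entry into mitosis, Birc5 is a chromosomal passenger protein, and Mki67 coats mitotic chromosomes.

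The sequences before the start of 4 of the 5 marker genes and of 3 further genes that were higher in cycling cells are shown because the markers define the members and the other 3 are examples of the spindle, replication and nucleotide supply genes. The window of the fifth marker, Ccnb1, is not printed because 84 of its 250 bases lie in a longer annotated transcript of that gene, as do 26 of those of Cdk1. Each run is the 250 bases upstream of the RefSeq start on GRCm38.p6, read 5′ to 3′ on the gene's strand, with CCAAT and TTTGAA in capitals on either strand (ATTGG and TTCAAA are the same letters read on the other strand). The regions are chr7:135716380-135716629 (minus strand) for Mki67, chr11:99024190-99024439 (minus) for Top2a, chr10:69352913-69353162 (minus) for Cdk1 and chr11:117848987-117849236 (plus) for Birc5. The spindle motor gene Kif11 is at chr19:37376132-37376381 (plus), the replicative helicase gene Mcm6 at chr1:128359706-128359955 (minus) and the ribonucleotide reductase gene Rrm1 at chr7:102441445-102441694 (plus).
Mki67: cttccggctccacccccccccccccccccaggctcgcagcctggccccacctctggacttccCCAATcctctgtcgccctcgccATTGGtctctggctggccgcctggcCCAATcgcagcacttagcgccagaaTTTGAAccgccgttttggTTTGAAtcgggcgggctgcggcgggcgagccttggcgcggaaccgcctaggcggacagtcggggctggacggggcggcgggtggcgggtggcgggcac
Top2a: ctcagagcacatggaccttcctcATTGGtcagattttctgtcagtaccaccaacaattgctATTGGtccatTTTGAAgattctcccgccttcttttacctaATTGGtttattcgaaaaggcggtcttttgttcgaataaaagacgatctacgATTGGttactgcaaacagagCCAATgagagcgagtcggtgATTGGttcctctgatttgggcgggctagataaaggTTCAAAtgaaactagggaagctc
Cdk1: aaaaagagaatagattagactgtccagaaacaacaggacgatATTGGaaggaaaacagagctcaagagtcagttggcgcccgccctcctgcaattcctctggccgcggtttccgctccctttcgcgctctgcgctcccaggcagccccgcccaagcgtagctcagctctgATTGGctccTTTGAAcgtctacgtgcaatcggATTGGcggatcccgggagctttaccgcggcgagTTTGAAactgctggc
Birc5: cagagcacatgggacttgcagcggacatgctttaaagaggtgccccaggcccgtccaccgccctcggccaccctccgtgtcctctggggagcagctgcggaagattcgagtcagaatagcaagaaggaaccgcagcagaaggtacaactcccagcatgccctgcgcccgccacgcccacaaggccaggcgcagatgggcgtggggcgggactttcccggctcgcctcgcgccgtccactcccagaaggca
Kif11: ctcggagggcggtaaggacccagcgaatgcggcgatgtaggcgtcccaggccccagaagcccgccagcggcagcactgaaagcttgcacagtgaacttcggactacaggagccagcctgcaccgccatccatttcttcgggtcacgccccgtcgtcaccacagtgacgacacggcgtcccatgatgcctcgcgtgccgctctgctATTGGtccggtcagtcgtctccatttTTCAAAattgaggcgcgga
Mcm6: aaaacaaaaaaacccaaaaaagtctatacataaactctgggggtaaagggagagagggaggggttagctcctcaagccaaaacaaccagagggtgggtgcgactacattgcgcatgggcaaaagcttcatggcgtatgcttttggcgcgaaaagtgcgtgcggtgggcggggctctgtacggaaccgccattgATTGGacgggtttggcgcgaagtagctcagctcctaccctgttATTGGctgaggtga
Rrm1: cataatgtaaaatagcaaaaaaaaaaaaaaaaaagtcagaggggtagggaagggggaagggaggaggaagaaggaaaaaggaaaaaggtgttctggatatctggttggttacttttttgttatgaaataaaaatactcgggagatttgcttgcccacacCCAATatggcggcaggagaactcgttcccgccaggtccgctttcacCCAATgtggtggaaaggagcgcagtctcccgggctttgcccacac

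Both letter strings stood in the Mki67, Top2a, Cdk1 and Kif11 windows, CCAAT alone in those of Mcm6 and Rrm1, and neither in that of Birc5. Top2a held 6 matches of CCAAT. A single promoter entry was matched for 37 of the 57 genes that were higher in cycling cells, and 23 of these (62.2%) held CCAAT, beside 37.5% of the 6866 tested genes with a single entry and 34.7% of 22862 promoters of the same length. TTTGAA stood in 11 of the 37 (29.7%), beside 10.5% of the tested genes and 16.7% of all promoters. Both strings stood in 7 of the 37 (18.9%), beside 4.14% of the tested genes and 5.82% of all promoters. Promoters on chr18, where the called gene Cdc25c lies, were left out of all these counts. These are matches of letters in a window and not binding sites.

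Cycling cells were found in 6 of the 7 luminal mice. In virgin mice they were 8 of 35 cells in vBrL (22.9%, exact 95% binomial interval 10.4% to 40.1%), 9 of 39 in vBr53L (23.1%, 11.1% to 39.3%) and 0 of 40 in v53L, where the exact interval reaches 8.81% and 3 counts of the total would be 7.5%. In pregnant mice they were 16 of 71 in pBrL-1 (22.5%, 13.5% to 34%), 18 of 38 in pBrL-2 (47.4%, 31% to 64.2%), 18 of 53 in pBr53L (34%, 21.5% to 48.3%) and 9 of 36 in p53L (25%, 12.1% to 42.2%). The share differed by more than 2 times between the pBrL mice, which had the same genotype and stage and different chips. These intervals cover counting error only, and the C1 chip's size window can set which cells were captured.

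**Figure D1:**
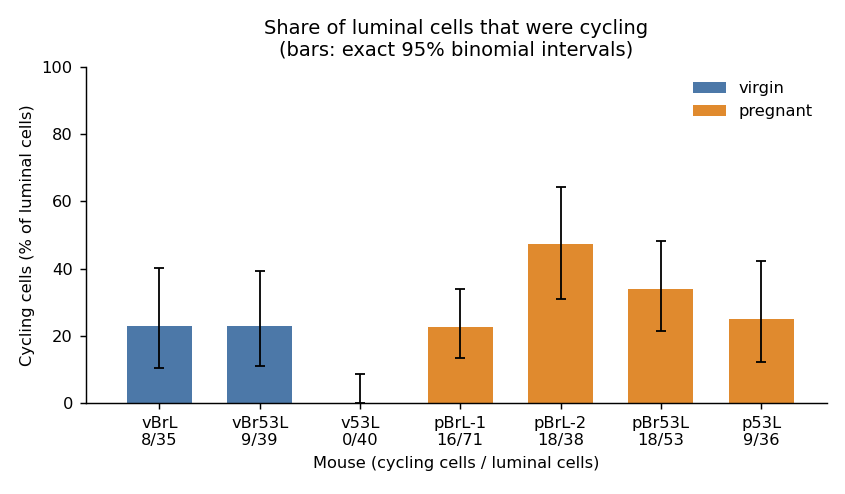
Share of luminal cells that were cycling, in percent (y axis), for each of the 7 luminal mice (x axis, with cycling and total cells), virgin in blue and pregnant in orange, with exact 95% binomial intervals as error bars. The shares run from 0% in v53L to 47.4% in pBrL-2, and the other mice lie between 22.5% and 34%.

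The mean share was 32.2% ± 11.2 (SD, n = 4) in pregnant mice and 15.3% ± 13.3 (n = 3) in virgin mice. The difference of 16.9 percentage points did not pass an exact two-sided permutation test over the 35 ways to assign the mice (p = 0.171). It was 9.25 points without v53L (exact permutation p = 0.333). Within the chips that held both stages, the share was 34% in pBr53L against 23.1% in vBr53L, and 25% in p53L against 0% in v53L. Mice with Brca1 fl/fl averaged 30.0% ± 10.9 (n = 5) and those with Trp53 fl/+ alone 12.5% ± 17.7 (n = 2). That difference of 17.5 points gave an exact permutation p of 0.238 over 21 assignments, and it was 4.96 points without v53L and 30.0 points without p53L.

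In v53L the markers were close to absent, with 5 marker reads in all, in 3 of its 40 cells. The highest summed marker level of any v53L cell was 3.22 CPM. Its hormone-sensing genes summed to 5760 CPM, against 249 to 2723 CPM in the non-cycling cells of the other 6 mice, so its luminal cells stood apart in more than the cycling markers. The part of this in its share of cycling cells was not tested.

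**Figure D2:**
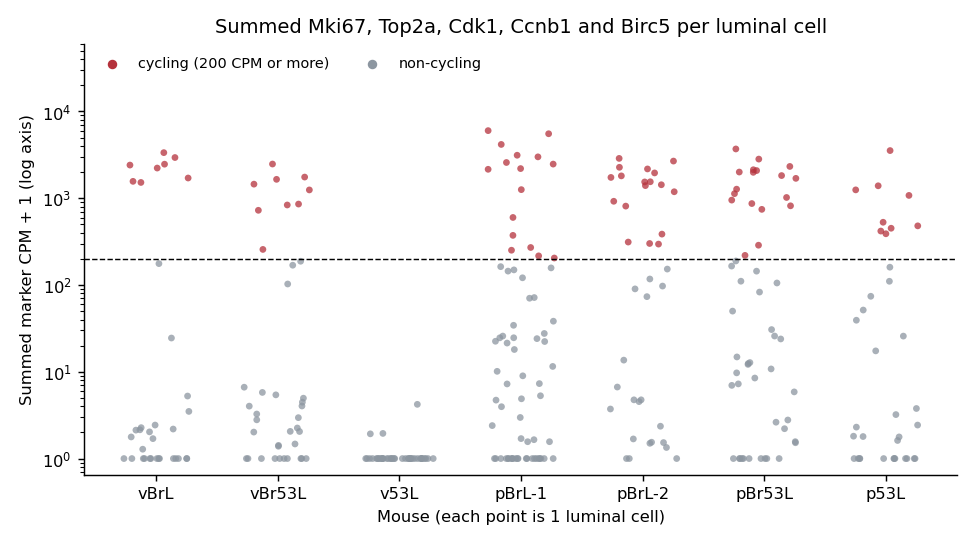
Summed CPM of the 5 markers plus 1 on a log axis (y) for each of the 312 luminal cells by mouse (x), cycling cells in red and non-cycling cells in grey, with the 200 CPM limit as a dashed line. The red points reach 6018 CPM, 18 grey points lie between 100 and 200 CPM, and no v53L cell exceeds 3.22 CPM.

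The summed marker level of the 78 members ranged from 204 to 6018 CPM with a median of 1487 CPM, and that of the non-members had a median of 0.553 CPM. The members nearest the limit had 204, 216 and 219 CPM and the non-members nearest to it 188, 187 and 176 CPM. All 5 markers had reads in 48 of the 78 members, 4 markers in 18 and fewer in 12. Among the 234 non-members, 108 had no read of any marker and 9 had reads of all 5. Mki67 had reads in 77 of 78 members, Birc5 in 72, Top2a in 71, Cdk1 in 68 and Ccnb1 in 53. In vBr53L the members' summed counts gave 0.385 CPM of Ccnb1, against 11 to 254 CPM in members of the other 5 mice, while Cdk1 in vBr53L was 302 CPM.

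The members carried more detected genes than the other luminal cells of their mouse. After each cell was thinned to 100000 reads, the median number of genes with a read in members and non-members was 4256 and 3165 in vBrL, 3794 and 2992 in vBr53L, 4176 and 3435 in pBrL-1, 4872 and 3222 in pBrL-2, 4540 and 3585 in pBr53L, and 3646 and 3117 in p53L. The difference was positive in 6 of 6 mice and averaged 962 genes ± 388 (SD), with an exact sign-flip permutation p of 0.0312, the smallest that 6 mice allow. Median depth was 1840516 reads in members and 1668296 reads in the non-members of the same mice. The part of this difference in complexity in the gene comparisons that follow was not tested. Calls against only those non-members with at least 3500 detected genes are given for each list that held a call. Here and below, that limit of 3500 counts genes detected after thinning to 100000 reads.

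The 7 luminal markers (Krt8, Krt18, Krt19, Epcam, Cd24a, Cdh1 and Elf5) summed to 7017 to 10114 CPM per mouse in members and to 8927 to 15865 CPM in non-members. The 7 basal markers summed to 28.1 to 168 CPM in members, with the basal keratin Krt5 at 0, and to 0 to 500 CPM in non-members, and 27 of 78 members and 56 of 234 non-members held 100 CPM or more of them. The 6 fibroblast markers summed to 0 to 476 CPM in members and to 0.214 to 803 CPM in non-members, with Lum at 0 in both, and 3 of 78 members and 23 of 234 non-members held 100 CPM or more. The 6 immune markers summed to 3.27 to 49.1 CPM in members, with Cd3e at 0, and to 5.72 to 380 CPM in non-members. Of these markers, 4 of 78 members and 11 of 234 non-members held 100 CPM or more. The endothelial and red cell lists stayed under 60 CPM as sums over each class of every mouse. Among single cells, 2 of 78 members and 10 of 234 non-members held 100 CPM or more of the endothelial list, and 0 and 6 of the red cell list. Every cell of both classes held 100 CPM or more of the luminal markers, while some cells of both classes also carried those of other cell types, and the part of these cells in the gene comparisons was not tested. The capture sites had been inspected by microscope for doublets, and no doublet caller was run. No 2 of the 477 cells held identical counts.

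The members were then compared with the non-members of the same mouse by an edgeR quasi-likelihood test on counts summed by mouse and class, with the mouse as a block, in the 6 mice that had both classes. Apart from the 5 markers, 10927 genes were tested. In cycling cells 57 genes rose (0.522% of those tested) and 4 fell (0.0366%) at an adjusted p under 0.05 after Benjamini-Hochberg adjustment, and 945 had an unadjusted p under 0.05. The median log2 difference over all genes was -0.17, 4414 of the 10927 (40.4%) had a positive difference, and 472 genes (4.32%) were higher and 338 (3.09%) lower in all 6 mice. Of the 57 genes, 45 had every mouse's cycling value above every mouse's non-cycling value, against 149 of all genes (1.36%), and for 2 of the 4 that fell every cycling value lay below, against 0.21% of all genes. The classes come from the same chips and reads as the markers that defined them. Against non-members with at least 3500 detected genes, 39 of 10287 genes tested were higher and 4 lower, of which 28 and 1 were among those above. That comparison kept all members but only 9 non-members of vBrL, 8 of vBr53L, 24 of pBrL-1, 8 of pBrL-2, 19 of pBr53L and 7 of p53L. The part of these smaller numbers of cells in the calls lost there was not tested. In that comparison 14 genes of the spindle list described below were called higher, 6 mitosis regulators, 3 chromatin genes, 2 of chromosome condensation and 1 each of replication and nucleotide supply, and Gbp2 of the interferon list was called lower. DESeq2 was run on the same counts without the low-count filter used for edgeR, over 18186 genes, of which 12543 had an adjusted p. It called 501 genes higher and 532 lower, all 57 and 4 among them. Its calls in the lists below also cover listed genes that edgeR did not test. Without pBrL-2 edgeR called 18 higher. With each mouse left out in turn 14 of 60 called genes followed passed every time.

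**Figure D3:**
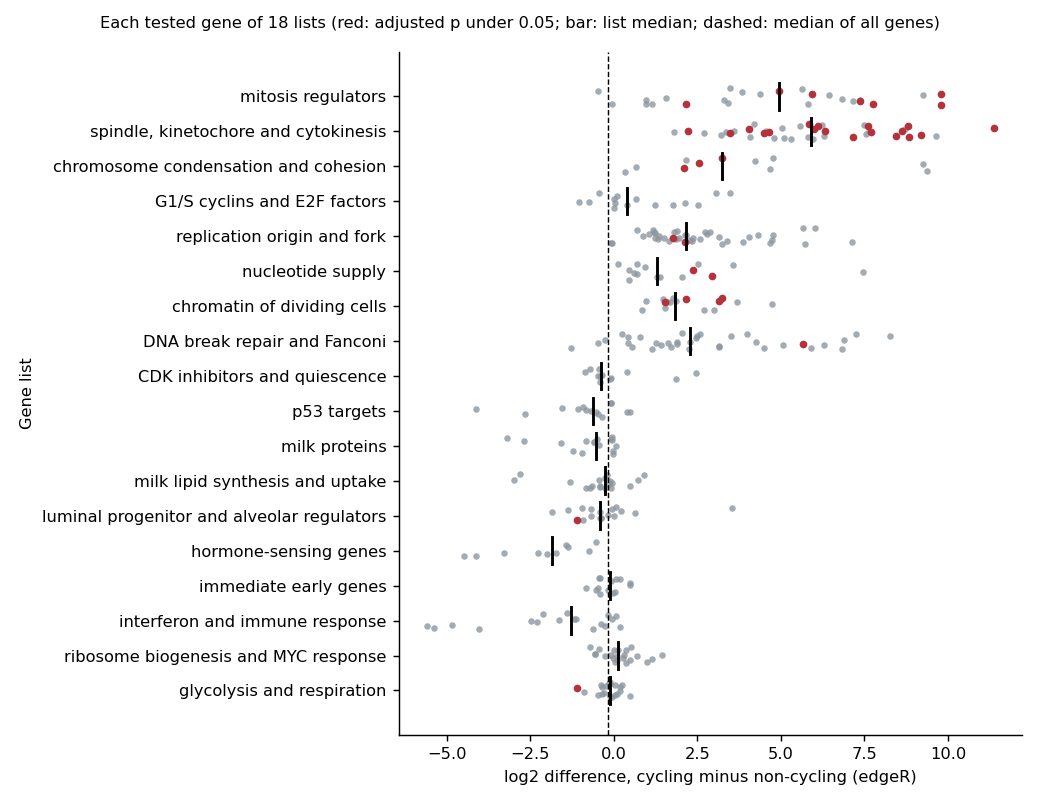
The log2 difference between cycling and non-cycling cells (x axis) of every tested gene in 18 gene lists (y axis), with genes past an adjusted p of 0.05 in red, the list median as a black bar and the median of all genes, -0.17, as a dashed line. The mitosis and spindle lists have medians of 4.95 and 5.90, and the lists from CDK inhibitors down lie near or below 0 except ribosome biogenesis at 0.12.

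Mitotic genes were the most numerous of the listed genes that rose. The rule chose the members by mitotic markers, so a rise of genes that vary with those markers follows in part from the rule. The p-values of the mitotic lists are no independent evidence that the members were dividing. Of the spindle, kinetochore and cytokinesis list 40 of 41 genes were tested, 18 rose, 38 were higher in every mouse and the median log2 difference was 5.90. Against non-members with at least 3500 detected genes 10 of the 18 passed again, among them Kif11, Tacc3, Ndc80 and Nuf2 but not Spc24, Spc25 or Sgo1. Kif11, the motor that pushes spindle poles apart, was at 425 CPM in vBrL, 97.6 in vBr53L, 314 in pBrL-1, 265 in pBrL-2, 247 in pBr53L and 205 in p53L in members. In non-members of these mice Kif11 was at 0.395, 0.201, 6.71, 0.697, 12.1 and 0.689 CPM. The 2 classes did not overlap, with a log2 difference of 7.61 ± 0.92 (standard error) and an adjusted p of 0.00747 by edgeR. Tacc3, a spindle microtubule stabiliser at chr5:33658128-33678995, was at 234, 348, 150, 193, 180 and 107 CPM in members in the same order of mice, and at 26.7, 21.4, 23.5, 20.1, 12.9 and 5.18 CPM in non-members. It rose in members in all 6 mice by a log2 difference of 3.47 ± 0.32 (edgeR adjusted p = 0.00323). The kinetochore genes Ndc80, Nuf2, Spc24 and Spc25, which together form the complex that grips microtubules, all rose, with log2 differences of 9.18, 7.17, 4.65 and 4.51. Sgo1, which guards centromeric cohesion, had the largest fitted difference of the list, 11.38 ± 1.75, but 99.2% of its non-cycling reads in the 6 mice came from 1 pBr53L cell.

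The mitosis regulators list had 25 of 26 genes tested, of which 7 rose and 18 were higher in every mouse, with a median log2 difference of 4.95. Of the 7, Cdc25c, Aurkb, Ttk and Ube2c passed again against non-members with at least 3500 detected genes. Ube2c, the ubiquitin-conjugating enzyme of the anaphase-promoting complex, was at 207 CPM in vBrL, 56.6 in vBr53L, 397 in pBrL-1, 273 in pBrL-2, 261 in pBr53L and 155 in p53L in members, and between 0.120 and 12.4 CPM in non-members. Members were above non-members in every mouse, lowest in vBr53L, with a log2 difference of 5.93 ± 0.70 (edgeR adjusted p = 0.00661). Ccna2, the cyclin of S phase and early mitosis, was at 22.6 to 149 CPM in members and 0 to 4.82 CPM in non-members, a log2 difference of 7.37 ± 1.298 (edgeR adjusted p = 0.0425). The checkpoint kinase gene Ttk, the passenger kinase gene Aurkb, the phosphatase gene Cdc25c, the securin gene Pttg1 and the mitotic kinase gene Pbk also rose. Plk1 and Ccnb2 were higher in all 6 mice without passing, at log2 differences of 9.25 ± 2.07 and 4.37 ± 0.87 (edgeR adjusted p = 0.106 and 0.0686).

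Of the 12 genes for chromosome condensation and cohesion, all were tested, 3 rose and the median was 3.23. Only Smc2 of the 3 passed again against non-members with at least 3500 detected genes. Smc2, the core condensin subunit at chr4:52439243-52488260, was at 544, 506, 255, 267, 224 and 219 CPM in members of vBrL, vBr53L, pBrL-1, pBrL-2, pBr53L and p53L. In non-members it was at 37.3, 57.7, 17.6, 24.1, 40.9 and 27.7 CPM. All 6 member values lay above all non-member values, and both virgin mice were above the pregnant ones, with a log2 difference of 3.23 ± 0.27 (edgeR adjusted p = 0.00323). Its partner Smc4 rose by 2.56 ± 0.29 and the cohesin subunit Rad21 by 2.11 ± 0.32 on the log2 scale.

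Genes of DNA replication were mostly higher in members. In the replication origin and fork list all 41 genes were tested, 2 rose, 17 were higher in every mouse and the median log2 difference was 2.17. Mcm6 was at 232 CPM in vBrL, 488 in vBr53L, 112 in pBrL-1, 169 in pBrL-2, 308 in pBr53L and 295 in p53L in members, and at 54.9, 163, 96.4, 31, 59.9 and 63.1 CPM in non-members. The classes overlapped across mice, but members were higher within each, by 1.78 ± 0.32 on the log2 scale (edgeR adjusted p = 0.0439). Tipin, a fork protection factor, rose by 2.13 ± 0.34 (edgeR adjusted p = 0.0242), and of the 2 it alone passed again against non-members with at least 3500 detected genes. Pcna, the sliding clamp, was higher in 5 of 6 mice with a log2 difference of 1.21 ± 0.48 (edgeR adjusted p = 0.487).

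All 15 nucleotide supply genes had a positive difference, 2 of them rose and the median was 1.28. Rrm1, the large subunit of ribonucleotide reductase, was at 371, 766, 232, 461, 397 and 154 CPM in members in the order above and at 87.4, 199, 78, 46.3, 42.9 and 28 CPM in non-members. It was higher in members of every mouse by 2.36 ± 0.26 on the log2 scale (edgeR adjusted p = 0.00661), and the salvage kinase gene Tk1 rose by 2.94 ± 0.52. Neither passed against non-members with at least 3500 detected genes. Rrm2, the small subunit, was at 801 CPM in vBrL and 901 in vBr53L but at 71.2 CPM in pBrL-1, and its difference of 7.47 ± 1.68 did not pass (edgeR adjusted p = 0.108).

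The G1/S cyclins and E2F factors gave no edgeR call, 1 gene at an unadjusted p under 0.05 and 5 DESeq2 calls, all higher. Of 15 tested genes 11 had a positive difference and the median was 0.40, with 2 higher in every mouse. Among 16 chromatin genes tested, all had a positive difference, 4 rose and the median was 1.83. These were Cbx5 (heterochromatin protein 1 alpha), H2afz (a histone variant), Hmgb2 (a DNA-bending protein) and Atad2 (a bromodomain ATPase), of which Cbx5 and H2afz passed again against non-members with at least 3500 detected genes. Cbx5 was at 253 to 965 CPM in members and 63.7 to 279 CPM in non-members (2.15 ± 0.24, edgeR adjusted p = 0.00661). Reads of H2afz and its near copy H2afv may be shared.

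**Figure D4:**
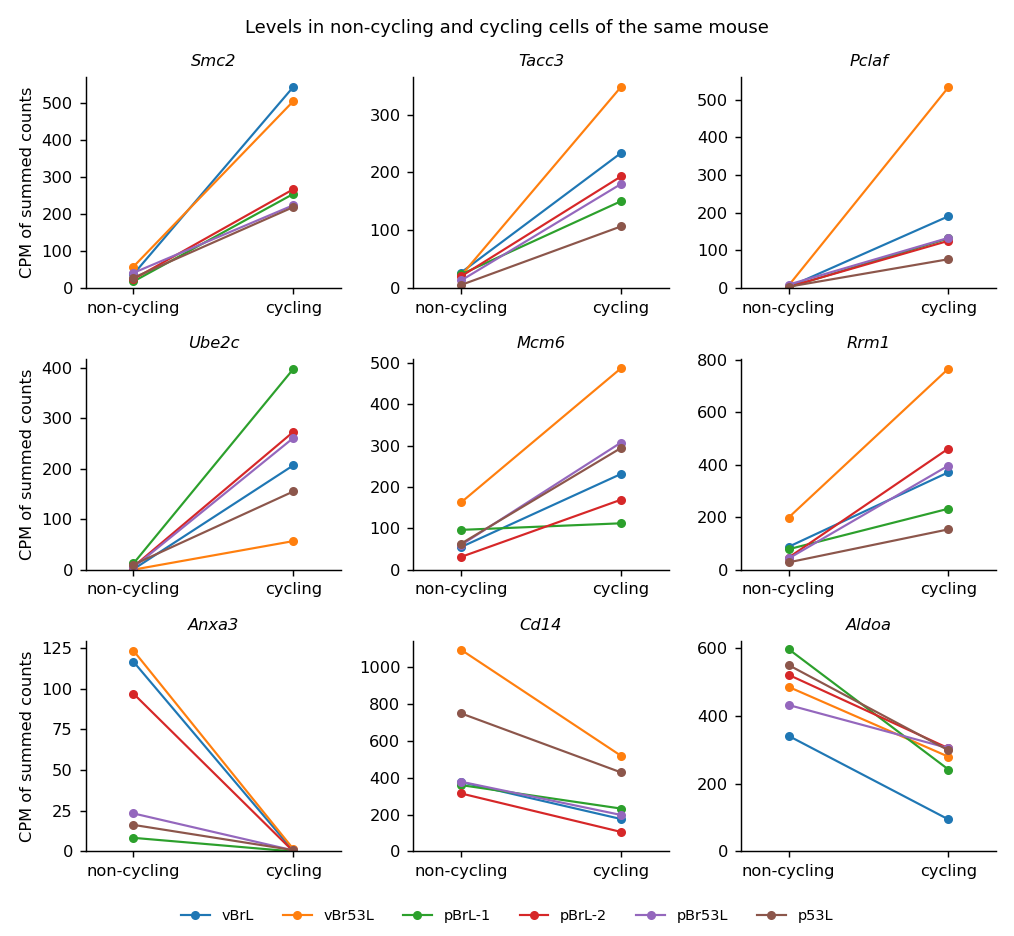
CPM of the summed counts (y axes) in non-cycling and cycling cells (x axes) of the same mouse, each line 1 of the 6 mice, for 9 genes. The first 6 panels rise in every mouse, and Anxa3, Cd14 and Aldoa fall in every mouse, with Anxa3 at 1.48 CPM or less in cycling cells.

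Repair genes were mostly higher in members, but with few calls. In the list of DNA break repair and Fanconi genes 35 of 40 measured were tested, 32 had a positive difference (40.4% of all genes did), 13 were higher in every mouse and 1 rose, with a median of 2.30. That gene was Brip1, a helicase that binds BRCA1, at 7.15 to 83.9 CPM in members and 0.120 to 1.57 CPM in non-members (5.66 ± 0.86, edgeR adjusted p = 0.0229), which did not pass against non-members with at least 3500 detected genes. Brca1 itself, the floxed gene at chr11:101488764-101551955, had 18, 110, 8.24, 61.7 and 70.9 CPM in members of vBrL, vBr53L, pBrL-1, pBrL-2 and pBr53L and 19.1 CPM in those of p53L. In non-members it was at or under 0.682 CPM except in pBr53L with 11.4 CPM and in v53L with 6.99 CPM. Its difference of 7.24 ± 1.36 missed the threshold (edgeR adjusted p = 0.0571). Its reads came from 30 of 78 members, and 84.2% of its reads in non-members of the 6 mice fitted, v53L left out, came from 1 cell. A count over the whole gene does not tell the floxed exons from the rest, so it checks neither the deletion of Brca1 nor that of Trp53, which was at 127 to 638 CPM in members.

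Outside the lists, 10 genes were named for the largest differences among those that rose. They included Pclaf, a PCNA partner at chr9:65890237-65903266, which was at 191, 534, 132, 125, 133 and 76.4 CPM in members and at 2.56, 6.54, 1.82, 2.95, 8.92 and 3.30 CPM in non-members. The classes were far apart in each mouse and vBr53L was highest, with a log2 difference of 5.38 ± 0.48 (edgeR adjusted p = 0.00323). The centromere gene Cenpi, the abscission gene Cep55, the spindle gene Knstrn, the nuclear pore gene Ndc1, the ubiquitin ligase gene Traip and Shcbp1 rose by 3.78 to 8.78 on the log2 scale. Of the named genes, Cenpi, Cep55, Traip and Shcbp1 passed again against non-members with at least 3500 detected genes, and Pclaf, Knstrn, Ndc1, Hist1h4d and Gatm did not. Hist1h4d, one of many near-identical histone H4 genes whose reads may be shared, rose by 2.97 ± 0.53. Gatm, the first enzyme of creatine synthesis, had the largest fitted difference of the 10, 9.90 ± 1.69. It was at 1.85 to 54.8 CPM in members, with reads in 21 of 78 cells, and the non-members of the 6 mice held 15 reads in all, so the fitted size has little to rest on. The tubulin genes Tuba1b and Tubb5, singled out after their values were seen because they passed under every alternative, were at 197 to 438 and 766 to 1699 CPM in members, and at 58 to 102 and 229 to 531 CPM in non-members. They rose by 2.11 ± 0.24 and 1.83 ± 0.21 on the log2 scale (edgeR adjusted p = 0.00661 for both), with the limit that tubulin genes share sequence.

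By edgeR 4 genes fell in cycling cells, while DESeq2, without the low-count filter, called 532 lower on the same counts. Anxa3, an annexin at chr5:96793339-96845966, was at 117 CPM in vBrL, 123 in vBr53L, 8.37 in pBrL-1, 97.0 in pBrL-2, 23.4 in pBr53L and 16.3 in p53L in non-members, and at 0 to 1.48 CPM in members. The classes did not overlap, and the log2 difference was -7.17 ± 1.19 (edgeR adjusted p = 0.0299). Reads of Anxa3 were nevertheless present in 12 of 78 members (15.4%) and in 39 of the 194 non-members of the same mice (20.1%). Cd14, a co-receptor for lipopolysaccharide that marks luminal progenitors, was at 176, 519, 232, 106, 198 and 429 CPM in members and at 376, 1093, 360, 314, 378 and 748 CPM in non-members. It fell in all 6 mice, by 1.08 ± 0.17 on the log2 scale (edgeR adjusted p = 0.0242). Aldoa, a glycolytic aldolase, was at 94.6 to 305 CPM in members and 341 to 597 CPM in non-members, with no overlap (-1.08 ± 0.19, edgeR adjusted p = 0.0454). Acta2, smooth muscle actin and a basal cell marker, also passed, but 93.4% of its non-cycling reads in the 6 mice came from 1 cell. None of the 4 calls held throughout when mice were left out in turn. Cd14 and Aldoa lost theirs without any 1 of the 6 mice, and Anxa3 and Acta2 without any 1 but p53L. Cd14 and Aldoa also did not pass with no replicate block or against non-members with at least 3500 detected genes, where Anxa3 did. With the limit on the markers at 100 CPM or at 500 CPM 1 of the 4 passed each time, Aldoa at the lower limit and Anxa3 at the higher, while 48 and 36 of the 57 genes that rose passed again.

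Milk genes were expressed in members at levels that overlapped those of non-members. The 16 milk protein genes summed to 38472 to 192420 CPM in members and to 30513 to 190650 CPM in non-members, and members were higher in 3 of 6 mice. By edgeR 0 of the 16 passed, 4 were lower at an unadjusted p under 0.05 and DESeq2 called 2 lower. In the list 15 had a negative difference and the median was -0.54, beside -0.17 over all genes. In the milk lipid list 0 of 19 passed by edgeR, 4 were lower at an unadjusted p under 0.05, DESeq2 called 2 lower, and the median was -0.27. The milk lipid genes summed to 2772 to 11146 CPM in members and to 3317.5 to 16405 CPM in non-members. Members were higher in 1 of 6 mice, and neither sum was tested. Fasn, the fatty acid synthase, was lower in members of all 6 mice at 210 to 513 against 277 to 887 CPM, without passing (-0.66 ± 0.16, edgeR adjusted p = 0.131), as was the lipogenic regulator Thrsp (-1.29 ± 0.31, edgeR adjusted p = 0.130). Of 18 luminal progenitor and alveolar regulators only Cd14 passed. The stem cell factor receptor gene Kit was at 79.2 to 150 CPM in members and 114 to 321 CPM in non-members, lower in all 6 mice (-0.69 ± 0.27, edgeR adjusted p = 0.498). After thinning, however, Kit had a read in 57 of 78 members (73.1%) and in 121 of 194 non-members without v53L (62.4%). These shares were pooled over mice and not tested.

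By edgeR 0 of 10 tested hormone-sensing genes passed, 2 were lower at an unadjusted p under 0.05 and DESeq2 called 3 lower. All 10 had a negative difference, with a median of -1.86. After thinning to 100000 reads, the share of cells with a read was lower in members than in non-members without v53L for 7 of the 12 listed genes, higher for 4 and 0 in both for 1. The progesterone receptor gene Pgr had a read in 4 of 78 members (5.13%) and in 16 of 194 non-members (8.25%), and the estrogen receptor gene Esr1 in 20 (25.6%) and 47 (24.2%). Foxa1, a cofactor of the estrogen receptor, had a read in 1 member (1.28%) and 12 non-members (6.19%), and the prolactin receptor gene Prlr in 61 (78.2%) and 140 (72.2%). These cells were pooled over 6 mice and the shares were not tested. Areg, an estrogen-induced growth factor, was lower in members of every mouse (-1.99 ± 0.63, edgeR adjusted p = 0.329), with 46.5 and 52.4 CPM in members of vBrL and vBr53L and 0.383 to 5.06 CPM in those of pregnant mice.

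The lists of p53 targets, CDK inhibitors, immediate early genes, interferon response and ribosome biogenesis gave no edgeR call in either direction. At an unadjusted p under 0.05 they held 0, 2, 0, 4 and 2 genes, and DESeq2 called 1, 1, 0, 4 and 2, all lower except those of ribosome biogenesis. Their medians were -0.61, -0.37, -0.12, -1.29 and 0.12, and those of p53 targets and CDK inhibitors turned to 0.15 and 0.03 against non-members with at least 3500 detected genes. There the ribosome biogenesis median was 0.54 and the interferon median -0.24, and the interferon-induced GTPase gene Gbp2 was called lower, whose difference against all non-members was -2.28 ± 0.79 (edgeR adjusted p = 0.395). The 22 ribosome biogenesis genes summed to 3760 to 4800 CPM in members and to 2883 to 3938 CPM in non-members of the same mice, higher in members of all 6. The CDK inhibitor sum was 5038 to 8126 CPM in members and 7510 to 10005 CPM in non-members, lower in members of all 6. The sums of p53 targets, interferon response and immediate early genes were higher in members of 1, 1 and 2 of the 6 mice. None of these sums was tested. Btg2, an antiproliferative gene, was lower in members of all 6 mice, at 323 to 1838 against 644 to 2065 CPM, without passing (-0.71 ± 0.16, edgeR adjusted p = 0.104). Dkc1, the pseudouridine synthase of ribosome assembly, was higher in all 6 (1.46 ± 0.30, edgeR adjusted p = 0.0831). In the glycolysis and respiration list Aldoa alone passed and the median was -0.11.

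The members were not alike in the balance of replication and mitosis genes. For each cell the CPM of the 67 genes of both mitosis lists and of the 41 replication genes were summed, and their ratio, which is not adjusted for gene length, was compared between cells only. The ratio ranged from 0.238 to 59.95 over the 78 members, with a median of 2.65. Its median was 0.929 in vBr53L, 1.201 in p53L, 2.12 in vBrL, 2.78 in pBr53L, 3.35 in pBrL-2 and 3.92 in pBrL-1. On the chip shared by vBr53L and pBr53L the ratio ran from 0.321 to 2.54 in 9 members of vBr53L and from 1.26 to 8.95 in 18 of pBr53L, ranges that overlap. With 1 mouse on each side no test was possible.

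**Figure D5:**
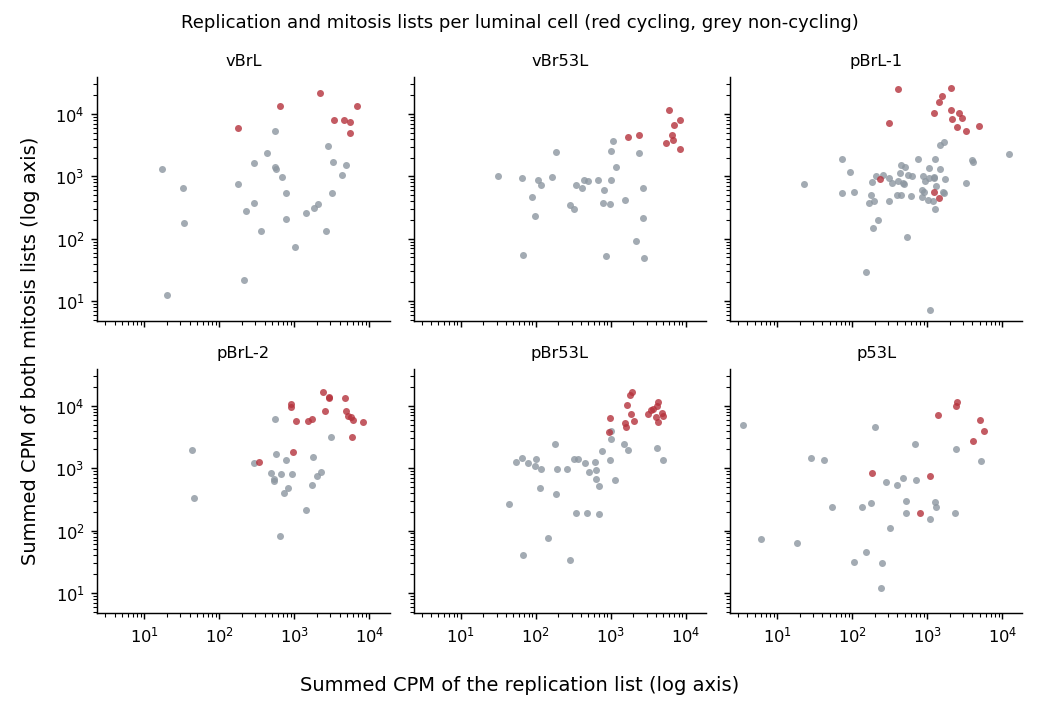
Summed CPM of the replication list (x axis, log) against summed CPM of both mitosis lists (y axis, log) for each luminal cell of the 6 mice with cycling cells, cycling cells in red and non-cycling cells in grey. Most red points sit at the top of each panel, with medians of 2510 CPM on x and 6947 CPM on y, and some grey points reach the same place on x but not on y.

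The limit on mitotic markers left some cells with replication genes outside. Of the 234 non-members, 17 (7.26%) had a replication sum at or above the members' median of 2510 CPM, and these had a median summed marker level of 1.27 CPM. They were 6 cells of vBrL, 4 of pBrL-1, 3 of vBr53L, 2 of pBr53L and 1 each of pBrL-2 and p53L. None of the 234 reached the members' median mitosis sum of 6947 CPM. The ranges otherwise overlapped, since 1 member had a mitosis sum of 192 CPM and 1 non-member 6038 CPM.

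Whether the difference between classes depended on stage was asked with the class by stage interaction, in 2 virgin and 4 pregnant mice. A single gene of 10927 passed (0.00915%), the interferon-inducible GTPase gene Ifi47, and 663 had an unadjusted p under 0.05. Ifi47 was at 0.309 and 0 CPM in members of vBrL and vBr53L, against 126 and 7.81 CPM in non-members. In pregnant mice it was at 235, 147, 709 and 160 CPM in members of pBrL-1, pBrL-2, pBr53L and p53L, against 180, 262, 614 and 179 CPM in non-members. The log2 difference was larger in pregnancy by 8.61 (edgeR adjusted p = 0.00903). The virgin side rested on 17 members, and the call was lost without either virgin mouse, without pBr53L, without p53L, by limma on mean CPM and against non-members of at least 3500 detected genes.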

How the data were processed

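The authors sequenced single-cell SMARTer and Nextera XT libraries, trimmed the reads with sickle and Trim Galore 0.4.1, aligned them to mm10 with STAR 2.5.3a, and deposited 1 table of raw read counts per gene, made with Subread 1.5.3, without molecular identifiers, so intervals cover counting error only. Each of 477 columns is 1 cell of 21004 genes, and luminal cells held 170209 to 3550564 reads. Cells were assigned to mice by their labels.

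Cells with a summed marker level of 200 CPM or more were called cycling. Counts were summed by mouse and class in the 6 luminal mice with at least 3 cells of each class (v53L had none), and tested with edgeR 4.0.16 (TMM scaling, filterByExpr, quasi-likelihood test, mouse as block, adjusted p under 0.05), after the procedure was tested on simulated data. Shares and detected genes were compared by exact two-sided permutation over mice, enumerated in Python 3.11.15, and the binomial intervals came from scipy 1.17.1. DESeq2 1.42.0 and limma 3.58.1 (log2 of mean CPM plus 1), other limits, scalings and filters, and leaving out each mouse were the alternatives. The comparison with non-cycling cells of at least 3500 genes detected after thinning to 100000 reads was added after seeing the data.

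The rule for named genes allowed the markers and listed genes, and the 10 genes outside the lists with the largest log2 difference in each direction, called, changed alike in every mouse and at 10 CPM or more in the higher class, leaving out gene models, and genes with a stage interaction; 1 gene it named is not reported here. The members and lists were chosen with earlier results of these data known. Gene positions came from the GENCODE annotation of GRCm38, where 20885 of the symbols matched once.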

Additional observations from a re-analysis of the deposited data

Results flagged for a closer look

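In 80 sets of values by mouse, 3 held a mouse that stood apart by Dixon's criterion, which chance flags in about 1 set in 20. For Cdc25c, the phosphatase that activates Cdk1, the log2 difference between cycling and non-cycling cells, computed from CPM plus 1, was 0.07722 in vBr53L and 5.77 to 8.14 in the other 5 mice. For Sgo1 it was 2.988 in pBr53L, whose non-cycling reads of this gene came almost wholly from 1 cell, and 6.21 to 6.81 elsewhere. For Ltf, the milk protein lactoferrin, it was -6.961 in p53L and -2.10 to -0.27 in the other mice.

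For Ifi47 the cycling difference was larger in pregnant than in virgin mice by 8.608 on the log2 scale (edgeR adjusted p = 0.00903), the one gene for which the test of the difference itself passed.

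The same rule applied to the tumor cells, which the comparisons above did not use, chose 56 of 165 cells. In the Br tumor BrT1 the share was 68.08% (32 of 47 cells), above the 47.37% of the highest luminal mouse, pBrL-2. In the other tumors it was 10.8% (4 of 37 cells, BrT2), 20% (6 of 30 cells, Br53T1) and 27.5% (14 of 51 cells, Br53T2). The tumor cells had been sorted through another gate, DAPI- CD24+, and the labels give no age for their mice. No test of tumor against luminal cells was run.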

How the results depend on the processing

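The differences in share kept their direction under all alternatives. With all 7 mice the alternatives gave exact permutation p-values of 0.0857 to 0.314, and with 1 mouse left out the design allows none under 0.0667, so those p-values say nothing of stability. The differences ran from 9.25 to 20.8 points for stage and from 4.96 to 29.96 points for Brca1 across the mice left out. Calling cells by reads of at least 2 of the 5 markers gave 32.14 and 33.63 points, and a limit of 500 CPM gave 9.646 points for stage, against 16.91 and 17.46. The difference in detected genes ran from 823.9 to 1048 with 1 mouse left out, each at an exact permutation p of 0.0625, the smallest 5 mice allow.

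The counts of genes depended on the tool and on the low-count filter. In place of 57 higher and 4 lower, DESeq2, run without that filter, gave 501 and 532 of 12543 genes with an adjusted p. Without that filter edgeR gave 111 and 14, thinned cells gave 102 and 9, and limma on mean CPM 175 and 12. The median log2 difference of all genes was 0.12 under DESeq2, -0.38 with no low-count filter, 0.04 against non-cycling cells of at least 3500 detected genes and -0.05 with no replicate block, against -0.17. With no replicate block (the mouse left out of the design) 68 genes were higher and 1 was lower. Leaving out 1 mouse gave 18 to 42 higher and 0 to 2 lower genes. The fewest came without pBrL-2, where 18 and 0 passed and 830 had an unadjusted p under 0.05. Leaving out pBrL-1 gave 22, vBrL 32, pBr53L 32 and vBr53L 34 higher genes. The cause was not tested, beyond the fewer samples. For stage, in place of 1 gene DESeq2 gave 681 of 12896 genes with an adjusted p, and edgeR with no low-count filter 7. Limits of 100 CPM, 500 CPM and thinned cells gave 2 each, and limma 0 (828 at an unadjusted p under 0.05). With 1 mouse left out it was 0 to 1 gene.

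Of 60 called genes followed through all alternatives, 8 passed under every one (Cbx5, Kif11, Kif15, Smc2, Tacc3, Tuba1b, Tubb5 and Ube2c). Of the 4 genes that fell, Cd14 and Aldoa lost their call without any 1 of the 6 mice, and Anxa3 and Acta2 without any 1 but p53L. No named gene reversed. With 1 mouse in most groups, a difference between genotypes below the spread between mice was not detectable.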
